A study of Mus musculus with 59 samples.

Results

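Gm13340, Gm13341, Gm13339 and Gm4076 are 4 annotated nuclear pseudogenes of the mouse that carry stretches of mitochondrial protein-coding genes with about 95 to 98% identity. They were chosen by symbol, as the copies of mt-Co1, mt-Co2, mt-Nd2 and mt-Nd5 in that range, and make up 4 of the 57180 rows of the count table. The choice came from earlier results of these data in which the copies of mitochondrial genes had stood out among the cortex calls, so their cortex differences between genotypes are described below without a test. The hippocampus libraries came from the same animals, so the tests there were not made in independent mice. All 4 passed the filter on low counts in both tissues.

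Stranded, paired-end libraries were sequenced from the poly(A) RNA of male mouse cortex and hippocampus, 59 in all. They came from 30 animals, and 1 wild-type animal was sampled in cortex only. The labels name 4 genotypes: Mrpl40 +/+,Slc25a1 +/+ (wild type, 9 cortex and 8 hippocampus libraries), heterozygous for Slc25a1 alone (Slc25a1 het, 7 and 7), heterozygous for Mrpl40 alone (Mrpl40 het, 7 and 7) and heterozygous for both genes (double het, 7 and 7). Each replicate is a separate animal by its label, the age was not given in the sources used here, and no treatment or transgene is named. The product of Mrpl40 belongs to the large part of the mitochondrial ribosome, and that of Slc25a1 carries citrate across the inner mitochondrial membrane.

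Mitochondrial DNA encodes a small set of proteins, all subunits of the respiratory chain and ATP synthase. COX1, the catalytic subunit of complex IV, is encoded by mt-Co1, and COX2, the subunit that receives electrons from cytochrome c, by mt-Co2, while mt-Nd2 and mt-Nd5 encode membrane subunits of the proton-pumping arm of complex I. Pieces of mitochondrial DNA have entered nuclear chromosomes many times during evolution, and such nuclear copies are as a rule pseudogenes that drift in sequence once they no longer serve the mitochondrion. A read from a mitochondrial transcript and a read from a nuclear copy can therefore differ at a few bases or at none. In this count table all 37 rows of mitochondrial genes held 0 counts in every library. From which copy, mitochondrial or nuclear, the reads counted for a pseudogene came cannot be told apart from these counts.

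Gm13340 (ENSMUSG00000083563) lies on chromosome 2 at chr2:22588103-22589647 of GRCm38, minus strand, and copies the whole of mt-Co1 over 1545 bases with 37 substitutions, an identity of 97.6%. Gm13341 (ENSMUSG00000083863, chr2:22587291-22587962, minus strand) copies mt-Co2 over 684 aligned bases with 16 substitutions and 12 bases missing from the copy, an identity of 95.9%. Gm13339 (ENSMUSG00000082884, chr2:22590024-22590533, minus strand) is 510 bases long and copies bases 529 to 1038 of mt-Nd2 with 17 substitutions, an identity of 96.7%. Gm4076 (ENSMUSG00000096449, chr13:85126550-85127514, minus strand) is a processed pseudogene by its annotation and copies bases 706 to 1659 of mt-Nd5 with 45 substitutions and a 1-base gap, an identity of 95.2%.

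The chromosome 2 copies keep the order and the spacing of the mitochondrial genome. Between Gm13339 and Gm13340 lie 376 bases, the same number as between mt-Nd2 and mt-Co1, where 5 tRNA genes sit. Between Gm13340 and Gm13341 lie 140 bases, again the number between mt-Co1 and mt-Co2, which holds 2 tRNA genes. Most substitutions were transitions (89.2% in Gm13340, 81.25% in Gm13341, 88.2% in Gm13339 and 91.1% in Gm4076). They fell mainly on the third codon position of the mitochondrial frame, with 83.8% in Gm13340, 87.5% in Gm13341, 70.6% in Gm13339 and 75.6% in Gm4076.

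A read of these libraries covers 150 bases, so the copies were compared with their mitochondrial gene in 150-base windows. A window stands for 1 read, and the bases that its paired mate covers were not taken into account. Windows across a gap of the alignment were left out, which dropped 149 of the 523 windows of Gm13341 and 57 of the 804 of Gm4076. The windows shown here are those where a copy is most like its mitochondrial gene or most diverged from it. Capitals mark the mismatches, positions count from the first base of the copy or of the mitochondrial gene, all sequences read 5′ to 3′ along the gene, and they were taken from the GENCODE vM21 transcripts of GRCm38. For Gm13340, the window most like mt-Co1 holds 1 mismatch and the most diverged window 7.
Gm13340 226-375: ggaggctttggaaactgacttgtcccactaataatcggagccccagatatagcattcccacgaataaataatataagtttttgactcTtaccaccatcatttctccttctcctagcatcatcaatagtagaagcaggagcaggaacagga
mt-Co1 226-375: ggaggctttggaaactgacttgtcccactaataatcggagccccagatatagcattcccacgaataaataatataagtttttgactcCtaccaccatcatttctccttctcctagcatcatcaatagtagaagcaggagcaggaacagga
Gm13340 454-603: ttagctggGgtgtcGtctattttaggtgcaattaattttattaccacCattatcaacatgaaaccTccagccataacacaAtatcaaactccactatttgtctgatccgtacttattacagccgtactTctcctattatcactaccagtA
mt-Co1 454-603: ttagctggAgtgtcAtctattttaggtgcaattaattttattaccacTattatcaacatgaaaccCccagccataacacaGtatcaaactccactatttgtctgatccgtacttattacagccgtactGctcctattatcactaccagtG

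Gm13341 has windows without any mismatch to mt-Co2, of which the first is printed once, and a window with 9 mismatches downstream of its gap.
Gm13341 58-207: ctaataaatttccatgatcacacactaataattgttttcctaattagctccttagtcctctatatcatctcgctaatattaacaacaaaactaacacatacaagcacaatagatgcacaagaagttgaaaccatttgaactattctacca
Gm13341 445-594: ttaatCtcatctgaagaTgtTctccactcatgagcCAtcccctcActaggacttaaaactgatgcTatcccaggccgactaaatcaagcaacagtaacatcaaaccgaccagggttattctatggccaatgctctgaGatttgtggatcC
mt-Co2 457-606: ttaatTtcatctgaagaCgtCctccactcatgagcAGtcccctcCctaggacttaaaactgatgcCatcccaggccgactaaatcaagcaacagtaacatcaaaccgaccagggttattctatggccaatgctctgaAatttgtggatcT

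For the complex I copies the windows most like the mitochondrial gene hold 2 mismatches in Gm13339 and 3 in Gm4076.
Gm13339 304-453: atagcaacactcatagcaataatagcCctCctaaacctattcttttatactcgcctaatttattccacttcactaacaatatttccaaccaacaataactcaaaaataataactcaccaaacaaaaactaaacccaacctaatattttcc
mt-Nd2 832-981: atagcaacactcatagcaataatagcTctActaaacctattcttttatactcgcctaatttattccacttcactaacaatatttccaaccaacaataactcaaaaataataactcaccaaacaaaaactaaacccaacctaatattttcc
Gm4076 274-423: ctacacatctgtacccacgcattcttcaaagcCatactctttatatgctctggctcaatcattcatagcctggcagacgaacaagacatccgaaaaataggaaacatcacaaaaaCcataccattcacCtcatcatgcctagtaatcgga
mt-Nd5 979-1128: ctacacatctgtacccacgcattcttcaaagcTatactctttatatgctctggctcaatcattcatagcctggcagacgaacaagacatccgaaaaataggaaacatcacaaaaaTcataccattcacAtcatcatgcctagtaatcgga

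Over the windows without a gap the median number of mismatches was 4 in Gm13340, 2 in Gm13341, 6 in Gm13339 and 7 in Gm4076. Windows with at most 2 mismatches made up 51.6% of Gm13341, 22.9% of Gm13340, 9.14% of Gm13339 and 0% of Gm4076. With at most 5 mismatches the shares were 86.9%, 91.2%, 41.0% and 24.5% in the same order. The longest run without a mismatch was 173 bases in Gm13341, 148 in Gm13340, 129 in Gm13339 and 82 in Gm4076. Gm13341 thus had the lowest median and the longest run, Gm13340 the largest share with at most 5 mismatches, and the values of Gm13341 do not cover the stretch with its missing bases.

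**Figure D1:**
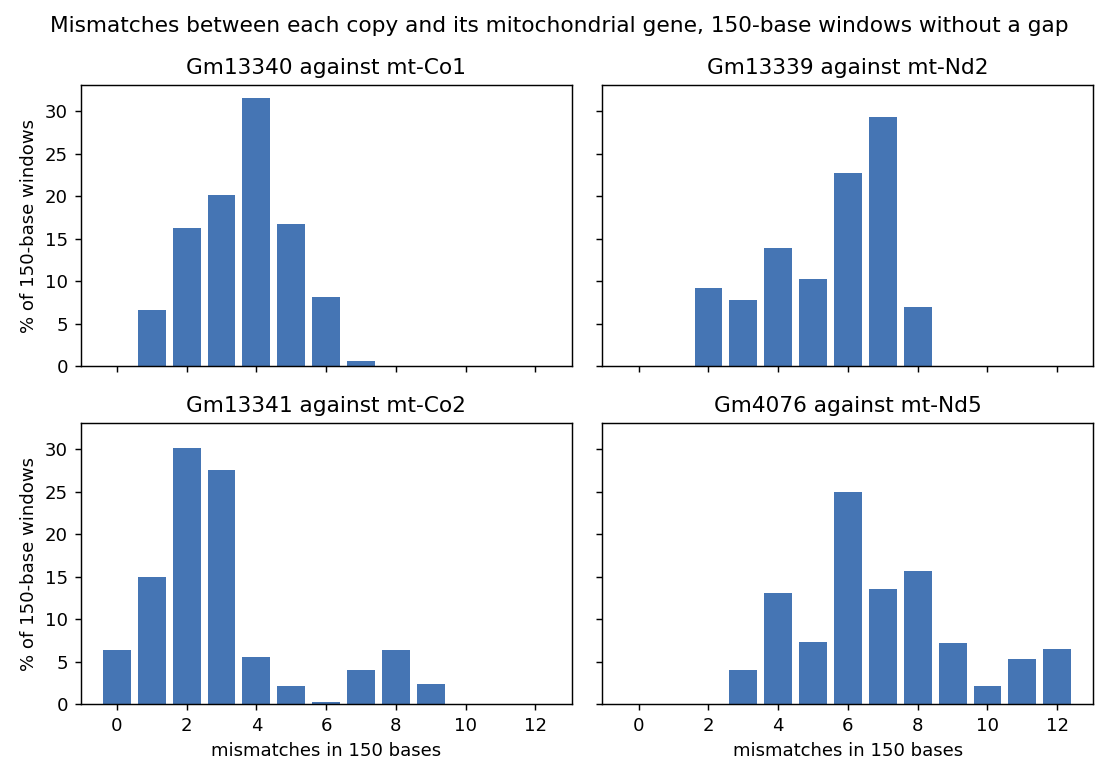
Share of the 150-base windows without a gap (vertical axis, percent) by the number of mismatches to the mitochondrial gene (horizontal axis) in each copy. Gm13341 has windows at 0 mismatches and a second group at 7 to 9, whereas no window of Gm4076 has fewer than 3.

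The search kept 42 annotated genes with a stretch of at least 200 bases like a mitochondrial gene on the same strand. It left out all genes of a single other chromosome, so the list is not a full survey. Of the 42, 11 reached 95% identity: these 4 and 7 copies on chromosome 1 that match mitochondrial genes at 99.7 to 100%. Gm28661 there copies mt-Co2 and Gm29216 the last 483 bases of mt-Co1, so that 1062 of the mt-Co1 bases of Gm13340 have no counterpart in the chromosome 1 copy of that gene. The set has no chromosome 1 copy of mt-Nd2 or mt-Nd5. Among the 42, Gm4076 stands just inside the 95% limit and Gm11408, a copy of mt-Nd6 at 93.6%, just outside it. The highest count of Gm11408 in a library was 4, and it was above 0 in 22 of 59 libraries.

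Gm13340 stood far above the other diverged copies in every library, with 94.3 to 95.9% of their summed counts. Averaged over the 59 libraries it reached 243 CPM (counts scaled to library size, with factors from the trimmed mean of M-values), against 5.98 for Gm13339, 3.64 for Gm13341 and 2.55 for Gm4076. Per kilobase of copy the means were 157 CPM for Gm13340, 11.7 for Gm13339, 5.41 for Gm13341 and 2.64 for Gm4076. This order held within each of the 59 libraries. Across libraries, the lowest Gm13339 value (7.56 CPM per kb) lay below the highest of Gm13341 (7.70), and the lowest Gm13341 value (3.65) below the highest of Gm4076 (3.69), whereas Gm13340 (123 to 215) overlapped none of them.

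The levels of the 4 copies followed the order of their identity over the whole length, in which the 12 missing bases of Gm13341 count as differences. Outside the gap the order was another. Gm13341 was closer to its mitochondrial gene than Gm13340 by window median (2 against 4 mismatches) and by longest run (173 against 148 bases). Its mean level was 5.41 CPM per kb against 157 for Gm13340. Per kb, the chromosome 1 copies ranged from 316 to 3998 CPM, all above the mean of Gm13340. The counts of the 31 other annotated copies kept by the search, all under 95% identity, did not exceed 9 in any library, and 13 of them were at 0 throughout. The 4 among them with at least 90% identity had at most 31 counts summed over the 59 libraries. The 4 diverged copies together took 0.0194 to 0.0343% of a library's counts and the chromosome 1 copies 0.647 to 1.09%.

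**Figure D2:**
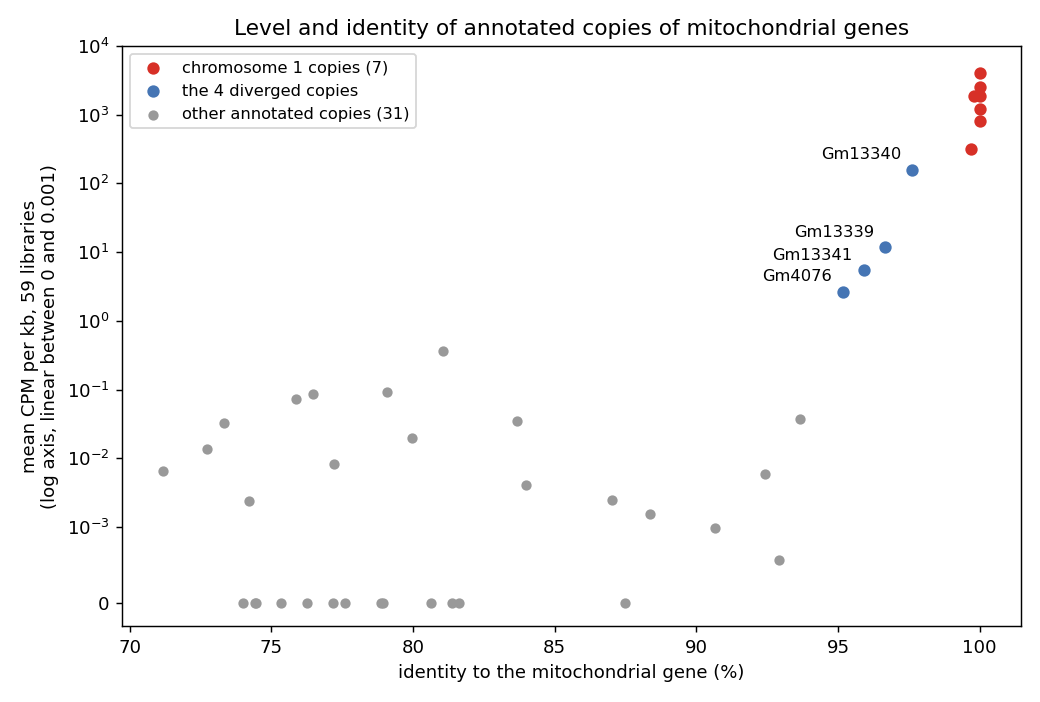
Mean level per kilobase over 59 libraries (vertical axis, log scale with a linear part from 0 to 0.001) against identity to the mitochondrial gene (horizontal axis, percent) for the 42 annotated copies kept by the search. The 4 diverged copies rise from 2.64 CPM per kb at 95.2% to 157 at 97.6%, between the other copies at the bottom and the chromosome 1 copies at the top. The identity of Gm13341 counts its 12 missing bases as differences.

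Copies that sit next to each other on chromosome 2 differed widely in count. Within a library Gm13340 had 67.3 times the count of Gm13341 (median, range 44.7 to 90.7) and 41.9 times that of Gm13339 (31.3 to 53.9). The chromosome 1 copy of mt-Co2, Gm28661, had 475 times the count of Gm13341 (323 to 698). For mt-Co1 the same comparison gave 3.75, Gm29216 over Gm13340 (3.25 to 4.46), and Gm29216 covers less of the gene.

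Counting error was a larger part of the spread for the low copies than for Gm13340. In hippocampus of the wild type, the expected counting error of Gm4076, with 42 to 64 counts a library, was 13.4% of its level, of Gm13341 (68 to 97 counts) 11.3% and of Gm13339 (111 to 167 counts) 8.65%. For Gm13340, with 4464 to 6144 counts, it was 1.36%. The coefficients of variation between these libraries were 9.88% for Gm4076, 10.9% for Gm13341, 15.2% for Gm13339 and 9.49% for Gm13340. In the double het the spread of Gm13339 was 21.9% at a counting error of 7.28%.

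Some facts of the whole series bear on the comparison of genotypes. Library totals ran from 21443017 to 32120906 counts. The level of Slc25a1 went against the label in 6 animals (wild-type replicates 6 and 7, Slc25a1 het replicates 3 and 4, double het replicates 5 and 6). In hippocampus it was 23.0 to 26.2 CPM in the other libraries labelled Slc25a1 +/+ and 10.8 to 12.9 in the other libraries labelled het, against 11.2 and 12.1 in those wild-type replicates and 21.0 to 27.3 in those 4 het libraries. The level of Mrpl40 did not separate its labels, with 13.4 to 17.2 CPM in wild-type and 14.0 to 17.1 in Mrpl40 het hippocampus, so it could not check them. Group names here therefore mean labels. The summed region markers matched the tissue labels: 4 cortex markers summed to 486 to 660 CPM in cortex and 102 to 187 in hippocampus, and 4 hippocampus markers to 686 to 1260 CPM in hippocampus and 137 to 216 in cortex. Nevertheless 4 hippocampus libraries stood apart in markers of neighbouring tissue: Slc25a1 het replicate 3 (336 CPM of 4 cerebellum markers, against a group median of 2.22), double het replicate 6 and Mrpl40 het replicate 5 (94.4 and 75.2 CPM of 5 choroid plexus markers) and wild-type replicate 8 (187 CPM of cortex markers). In bulk tissue, fewer cells of a type and less RNA per cell cannot be told apart.

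In hippocampus, Gm13340 was higher in the double het than in the wild type. Wild-type libraries ranged from 191 to 248 CPM with a median of 211, and a mean of 214 ± 20.3 (SD, n = 8). The double het ranged from 242 to 332 CPM with a median of 291 and a mean of 283 ± 32.8 (SD, n = 7). All 7 double het libraries were above the wild-type median and 5 of 7 above the highest wild-type library, so the groups overlapped in 2 libraries.

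The difference was 0.40 ± 0.072 (SE) on the log2 scale, or 1.32-fold (95% interval 0.26 to 0.54 on the log2 scale), and rose past the threshold in edgeR's quasi-likelihood test (adjusted p = 0.0412 over 20162 genes). Gm13340 was the only one of the 4 copies called, in a comparison where 2 genes of all tested, 0.00992%, were called. The other was Gm10222, the chromosome 1 copy of mt-Nd4l, a gene for a small complex I subunit (0.38 ± 0.064). The call was narrow: edgeR's adjusted p was 0.122 without the filter on low counts, 0.113 with only these genotypes in the fit, 1 without the 6 animals (0.33 on the log2 scale) and 0.244 without the 4 libraries that stood apart (0.37). Leaving out 1 library at a time, it was kept only without wild-type replicate 4, double het replicate 2 or double het replicate 7 and lost without any of the other 12, with differences from 0.36 to 0.44 throughout. DESeq2's Wald test gave an adjusted p of 0.000318.

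The other copies had differences of the same size without passing the test. Gm13341 ranged from 2.71 to 3.72 CPM in wild-type hippocampus (median 3.12) and from 3.56 to 5.18 in the double het (median 4.16), where 6 of 7 libraries were above every wild-type library. Its log2 difference was 0.46 ± 0.12 (edgeR adjusted p = 0.567). Gm13339 ranged from 3.85 to 6.62 CPM (median 5.38) against 5.77 to 9.58 (median 6.51), with 3 of 7 double het libraries above the wild-type range, and a difference of 0.43 ± 0.12 (adjusted p = 0.627). Gm4076 ranged from 1.88 to 2.56 CPM (median 2.15) against 2.10 to 3.56 (median 2.89), with 5 of 7 above the wild-type range, and a difference of 0.38 ± 0.10 (adjusted p = 0.627). The median of the 4 differences was 0.42, against -0.0029 over all genes tested, of which 48.6% were above 0.

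In the hippocampus of the Mrpl40 het, Gm13340 ranged from 257 to 292 CPM with a median of 271 and a mean of 274 ± 12.4 (SD, n = 7). All 7 of these libraries were above every wild-type library. The same held for the chromosome 1 copies Gm28661, Gm10925, Gm28437, Gm10222, Gm28439 and Gm28438, while Gm29216 had 3 of 7 above. How many of all genes separate in this way, here or in the other comparisons, was not counted. The share of genes called by edgeR, 0.00496% here, is another measure. For Gm13340 the log2 difference from the wild type was 0.35 ± 0.072, and edgeR's adjusted p was 0.117, past no threshold. It was 0.00624 by DESeq2's Wald test and 0.0162 in edgeR with only these genotypes in the fit. The 1 gene called was again Gm10222 (0.42 ± 0.064, edgeR adjusted p = 0.00421).

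Gm4076 had the highest difference of the 4 copies in the Mrpl40 het, 0.42 ± 0.10 (edgeR adjusted p = 0.377), with 6 of 7 libraries, at up to 3.48 CPM, above the wild-type range. Gm13341 differed by 0.36 ± 0.12 with 4 of 7 libraries above that range, and Gm13339 by 0.29 ± 0.12 with 3 of 7. Neither passed the test (edgeR adjusted p = 0.587 and 0.59). For each of the 4 copies all 7 Mrpl40 het libraries were above the wild-type median. The comparisons of the Mrpl40 het and of the double het share their wild-type libraries, so the likeness of their values is not independent.

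The Slc25a1 het did not stand apart from the wild type in hippocampus. Gm13340 ranged from 190 to 259 CPM with a median of 226, and 4 of 7 libraries lay within the wild-type range. The differences were 0.084 ± 0.072 for Gm13340, 0.033 ± 0.12 for Gm13341, 0.015 ± 0.12 for Gm13339 and -0.035 ± 0.10 for Gm4076. With edgeR 0 genes (0%) were called in this comparison, 1567 had an unadjusted p below 0.05, and DESeq2 and limma also called 0. For Gm13340 the 95% interval of the difference ran from -0.056 to 0.23 on the log2 scale.

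The double het was also compared with each single het. Against the Slc25a1 het the log2 differences were 0.32 ± 0.074 for Gm13340, 0.43 ± 0.12 for Gm13341, 0.42 ± 0.12 for Gm13339 and 0.42 ± 0.11 for Gm4076, with edgeR adjusted p from 0.241 to 0.32. In edgeR 0 genes (0%) passed there, 1822 had an unadjusted p below 0.05, and DESeq2 called 14, Gm13340 among them (adjusted p = 0.0395). Against the Mrpl40 het the differences lay between -0.033 for Gm4076 and 0.14 for Gm13339. For Gm13340 that difference was 0.049 with a 95% interval from -0.096 to 0.19. The interaction, which is what the double het shows beyond the sum of both single differences, was -0.035 ± 0.10 for Gm13340 and 0.0020 to 0.13 for the others (edgeR adjusted p = 0.999 each). Both of these comparisons had 0 calls (0%) in edgeR and DESeq2, with 943 and 683 genes at an unadjusted p below 0.05.

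**Figure D3:**
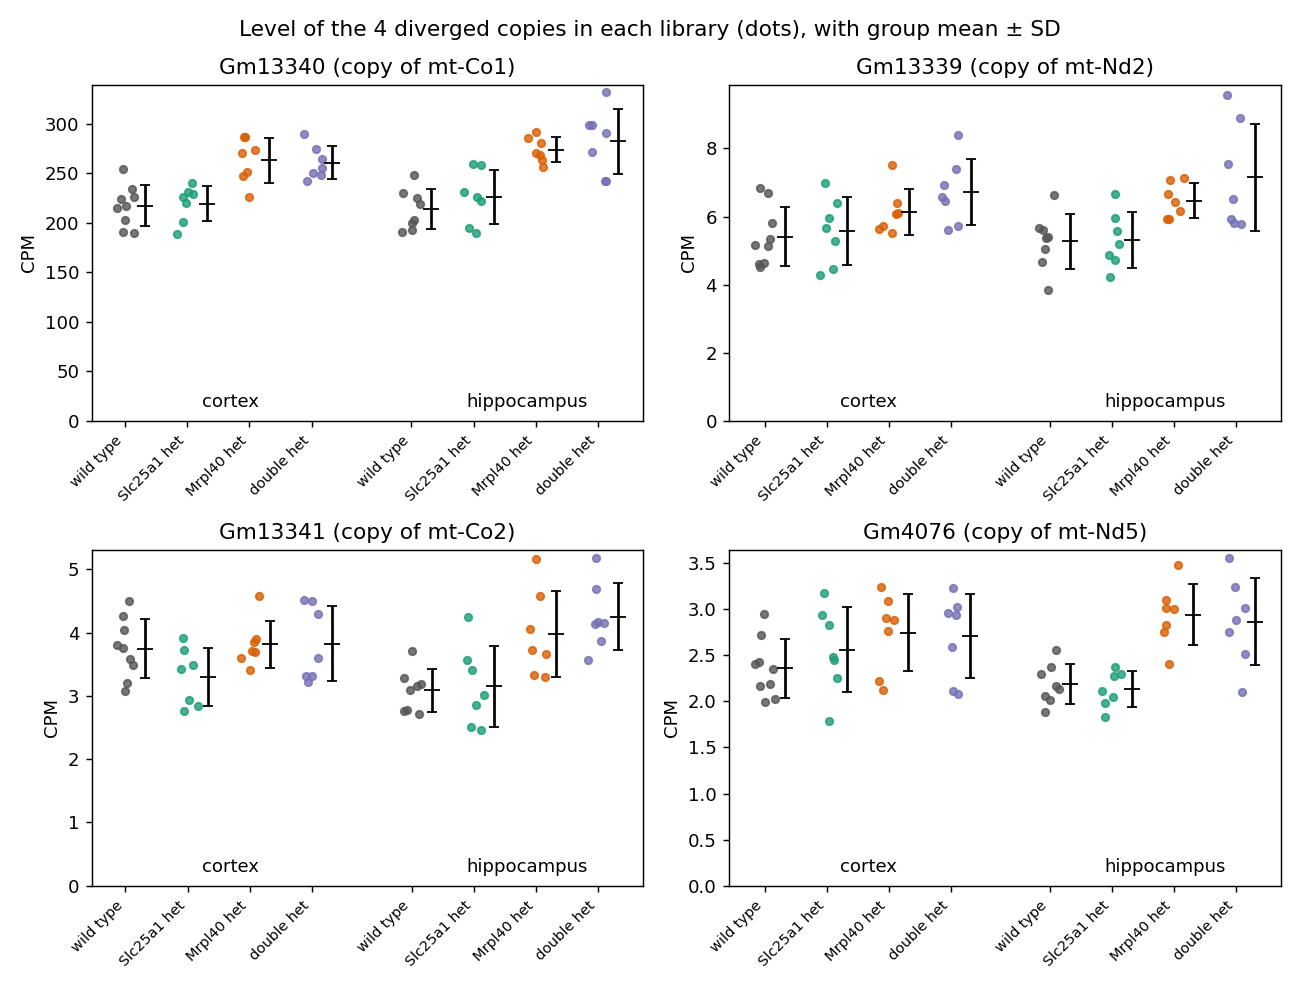
CPM (vertical axes, from 0) of each copy in every library, by tissue and labelled genotype (horizontal axes). Dots are libraries and bars the group mean ± SD. Gm13340 in Mrpl40 het hippocampus (257 to 292 CPM) lies wholly above the wild type (191 to 248). The chromosome 1 copies, not drawn here, did so too, except Gm29216. How many of all genes do so was not counted.

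In cortex the same copies were measured in the libraries whose calls had led to their choice, and the values are given as a description. Gm13340 ranged from 190 to 255 CPM in the wild type (median 217), from 226 to 287 in the Mrpl40 het (median 271), from 242 to 290 in the double het (median 256) and from 189 to 240 in the Slc25a1 het (median 226). Of 7 libraries each, 4 of the Mrpl40 het and 4 of the double het were above the highest wild-type library. The log2 differences from the wild type were 0.28 ± 0.058 in the Mrpl40 het, 0.26 ± 0.058 in the double het and 0.011 ± 0.058 in the Slc25a1 het.

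Gm13341 did not have the pattern of Gm13340 in cortex. Its median was 3.76 CPM in the wild type, 3.70 in the Mrpl40 het, 3.60 in the double het and 3.42 in the Slc25a1 het, with log2 differences of 0.028 ± 0.097, 0.022 ± 0.098 and -0.19 ± 0.099 from the wild type. Gm13339 differed by 0.18 ± 0.10, 0.31 ± 0.10 and 0.043 ± 0.10 in the same order. For Gm4076 the values were 0.21 ± 0.12, 0.19 ± 0.12 and 0.11 ± 0.12. Whether a genotype difference was larger in hippocampus than in cortex was not tested.

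The 7 chromosome 1 copies were the nearest comparison. In hippocampus their median log2 difference was 0.32 in both the Mrpl40 het (range 0.20 to 0.42) and the double het (0.19 to 0.38), and 0.0073 in the Slc25a1 het. The medians of the 4 diverged copies in the same comparisons were 0.35, 0.42 and 0.024. In cortex the medians of the chromosome 1 copies were 0.29, 0.22 and -0.0068 in that order. For the copies of mt-Co1, Gm29216 differed by 0.19 ± 0.084 and Gm13340 by 0.40 ± 0.072 between double het and wild-type hippocampus. For those of mt-Co2, Gm28661 differed by 0.20 ± 0.071 and Gm13341 by 0.46 ± 0.12. In cortex the same comparison gave 0.15 ± 0.037 for Gm29216 and 0.26 ± 0.058 for Gm13340. For mt-Co2 the order was reversed there, with 0.15 ± 0.040 for Gm28661 and 0.022 ± 0.098 for Gm13341. Gm29216 covers only part of mt-Co1, and Gm13340 was not tested against it.

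**Figure D4:**
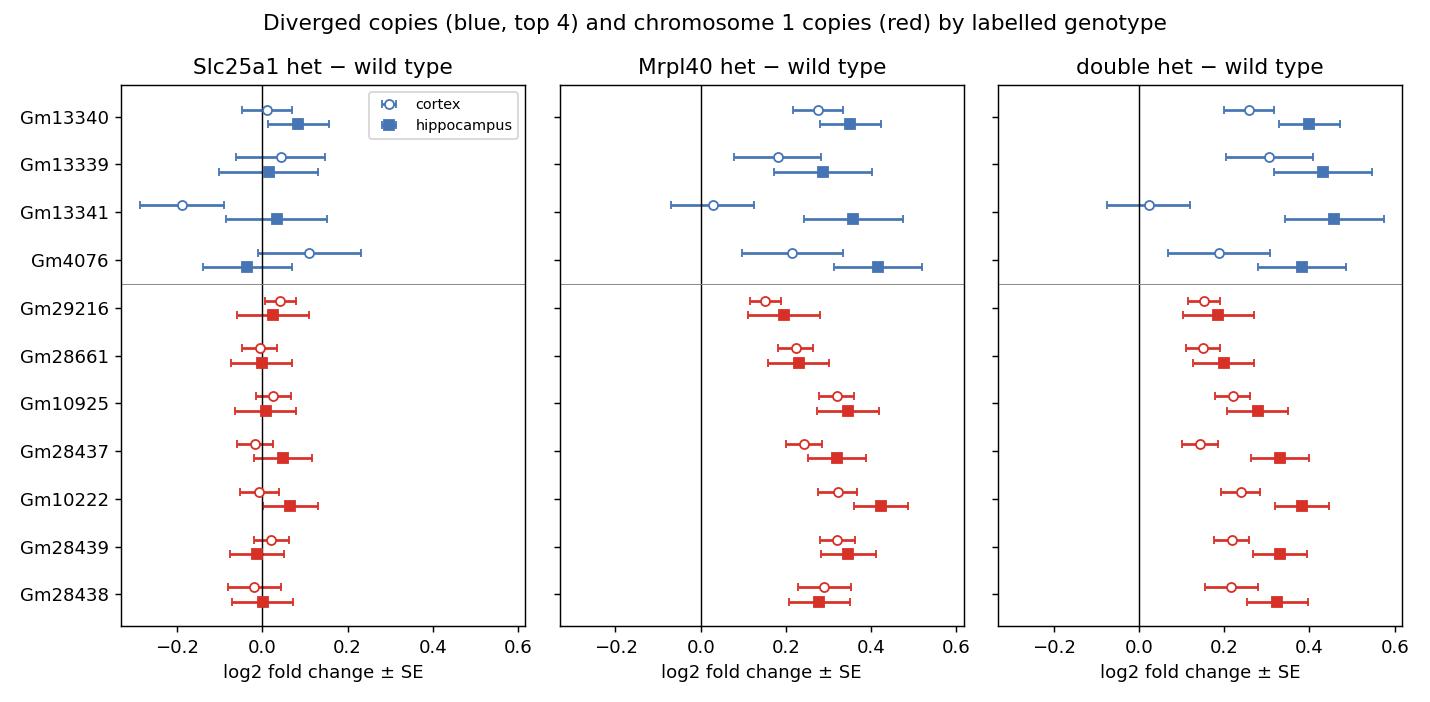
Log2 fold change against the wild type ± SE (horizontal axes) of the 4 diverged copies (blue) and the 7 chromosome 1 copies (red), with open circles for cortex and filled squares for hippocampus. Gm13341 lies near 0 in cortex (0.028 and 0.022) and at 0.36 and 0.46 in hippocampus in the Mrpl40 het and double het panels.

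The share of a diverged copy relative to the chromosome 1 copies was tested within libraries, which takes out the scaling between libraries. In hippocampus the log2 ratio of Gm13340 to the summed chromosome 1 copies was -5.19 ± 0.065 (SD, n = 8) in the wild type and -5.06 ± 0.045 (SD, n = 7) in the double het. The difference of 0.13 gave p = 0.00124 in a two-sided exact permutation test (adjusted p = 0.0149 over 12 tests), and 5 of 7 double het libraries were above every wild-type library. Without the 6 animals the exact permutation test gave a difference of 0.11 (adjusted p = 0.104), and without the 4 libraries that stood apart 0.12 (adjusted p = 0.0699). None of the other 11 ratios passed. The nearest was Gm13340 in the Slc25a1 het, with a difference of 0.072 (exact permutation p = 0.0194, adjusted p = 0.117).

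Between the tissues the diverged copies differed little. In the wild type the log2 difference of hippocampus from cortex in the same animals was -0.25 ± 0.10 for Gm13341 (edgeR adjusted p = 0.0396), which fell past the threshold in a comparison where 60.6% of genes were called, 30.4% higher and 30.1% lower in hippocampus. In the 8 animals with both tissues Gm13341 ranged from 3.08 to 4.27 CPM in cortex and from 2.71 to 3.72 in hippocampus, and it was lower in hippocampus in 7 of the 8. The call was lost with DESeq2 (adjusted p = 0.053), without the filter on low counts (edgeR adjusted p = 0.0784), without the 6 animals (-0.15, edgeR adjusted p = 0.293) and without the 4 hippocampus libraries (-0.23, edgeR adjusted p = 0.0858). Gm4076 (-0.13 ± 0.11), Gm13339 (-0.064 ± 0.11) and Gm13340 (-0.036 ± 0.064) did not pass.

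In the Slc25a1 het, where 60.4% of genes were called and 29.9% were lower in hippocampus, Gm4076 was lower in hippocampus, with a log2 difference of -0.26 ± 0.11 (edgeR adjusted p = 0.0476). It ranged from 1.79 to 3.17 CPM in cortex and from 1.84 to 2.38 in hippocampus, and was lower there in 5 of 7 animals. The call was lost with DESeq2 (adjusted p = 0.0705), without the filter (edgeR adjusted p = 0.149) and without the 4 libraries (edgeR adjusted p = 0.0832). None of the copies was called in the Mrpl40 het, where edgeR called 60.3% of genes, or in the double het, where it called 57.5%. Differences there ran from 0.053 to 0.10 and from 0.074 to 0.16.

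Relative to the chromosome 1 copies, 3 of the 4 diverged copies were lower in hippocampus than in cortex of the wild type. The log2 ratio fell by 0.35 for Gm13341, by 0.24 for Gm4076 and by 0.14 for Gm13340, each in 7 of 8 animals (two-sided exact sign-flip permutation test, adjusted p = 0.03125 each over 4 tests). For Gm13339 it fell by 0.17 in 6 of 8 animals (exact permutation p = 0.0859). The smallest p that 8 animals allow is 0.0078125. With the library total in place of the chromosome 1 copies as denominator the changes were -0.21, -0.10 and -0.0032 for Gm13341, Gm4076 and Gm13340, and none passed. No ratio passed without the 6 animals (smallest adjusted p in the exact permutation tests 0.0833) or without the 4 libraries (0.0625), where fewer animals remain. Over the same animals the chromosome 1 copies had a median log2 difference of 0.10 between hippocampus and cortex, with all 7 above 0 and 1 called.

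Markers of other cells were followed beside these results. The 5 choroid plexus markers summed to 19.3 to 30.9 CPM in wild-type hippocampus, 22.7 to 75.2 in the Mrpl40 het and 25.7 to 94.4 in the double het, with none of the 5 at 0. The 4 of them that were tested had a median log2 difference of 1.07 in both the Mrpl40 het and the double het. Of these 4, edgeR called 0 in each comparison, but 3 had an unadjusted edgeR p below 0.05 in each. In the Slc25a1 het the 5 summed to 24.6 to 42.5 CPM, and all 4 tested were above 0 with a median of 0.51. Of these, edgeR called 0 and 1 had an unadjusted edgeR p below 0.05. The median of the 4 diverged copies in that comparison was 0.024. The 5 neuron markers summed to 5227 to 6266 CPM in the wild type and 5169 to 7481 in the Mrpl40 het. Their sums were 4710 to 6668 CPM in the double het and 4276 to 5271 in the Slc25a1 het. The part of these markers in the differences of the copies was not tested, other than by leaving out the 4 libraries.

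Nuclear genes of the same machinery were counted alongside. In hippocampus edgeR called 0 of 18 genes for maintenance and transcription of mitochondrial DNA, 0 of 17 for processing and stability of mitochondrial RNA, 0 of 36 nuclear complex I subunits and 0 of 11 nuclear complex IV subunits in the double het against the wild type. Of these 82 genes 11 had an unadjusted p below 0.05, and DESeq2 and limma called 0. The median log2 differences of the lists were -0.041, -0.0083, -0.046 and -0.076, against 0.42 for the 4 diverged copies. In the Slc25a1 het all 3 tools also called 0 of the 82, of which 19 had an unadjusted p below 0.05. The median there was -0.085 for nuclear complex I subunits, with 1 of 36 above 0, and -0.089 for nuclear complex IV subunits, with 0 of 11 above 0. Neuron markers in that comparison had a median of -0.13 with 0 of 5 above 0. Astrocyte (0.088) and microglia (0.13) markers had 5 of 5 above 0 each, oligodendrocyte markers 2 of 5 and endothelial markers 1 of 3. With edgeR 0 of these markers were called, and the part of cell composition was not tested. In the Mrpl40 het edgeR, DESeq2 and limma also called 0 of the 82, of which 2 had an unadjusted p below 0.05. The medians of the 4 lists were 0.028, 0.019, -0.020 and -0.036.

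Among libraries of the same tissue, the copies varied together to unequal degrees. Deviations of log2 CPM from the group mean correlated between Gm13340 and the mean of the chromosome 1 copies with r = 0.92 over 29 hippocampus libraries and 0.68 over 30 cortex libraries. For Gm13341 the same values were 0.25 and 0.061, and for Gm4076 0.43 and 0.37. Between Gm13340 and Gm13339 r was 0.67 in hippocampus and 0.56 in cortex. These are descriptions without a test, over libraries that share their depth and scaling, and the low counts of Gm13341 and Gm4076 bear on them.

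Outside both sets of copies, the genes with deviations most like the mean of the 4 in hippocampus were Fam20a (r = 0.78), Enho (0.77), Smpdl3a (0.76), Rgcc (0.76) and Itgam (0.76), out of 16505 genes over 29 libraries. In cortex they were an unnamed gene (ENSMUSG00000121486, r = 0.78), Gm19932 (0.74), Gm42769 (0.72), Gm42772 (0.72) and Als2cl (0.70), out of 16571 genes over 30 libraries. No gene stood in both lists of 5. Of the chromosome 1 copies, Gm10925, the copy of mt-Atp6, ranked first of all these genes in hippocampus (0.78) and in place 65 in cortex (0.57).

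Levels in cortex and hippocampus of the same animal were compared for each copy, and no correlation passed its permutation test. Over the 29 animals with both tissues, deviations from the group mean of Gm13340 correlated with Pearson r = -0.029 (permutation p = 0.881) and Spearman rho = -0.0094 (permutation p = 0.962), and r was 0.063 without the 2 animals farthest from the cortex median. For Gm4076 the values were 0.17 (permutation p = 0.38) and 0.13 (permutation p = 0.491), with r = 0.35 without the 2 farthest animals. Gm13339 had r = -0.011 and rho = -0.040 (r = 0.011 without 2 animals), and Gm13341 0.0082 and 0.0020 (r = 0.046 without 2 animals). Adjusted over the 5 relations computed, which include the mean of the chromosome 1 copies, each permutation p was at least 0.949.

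**Figure D5:**
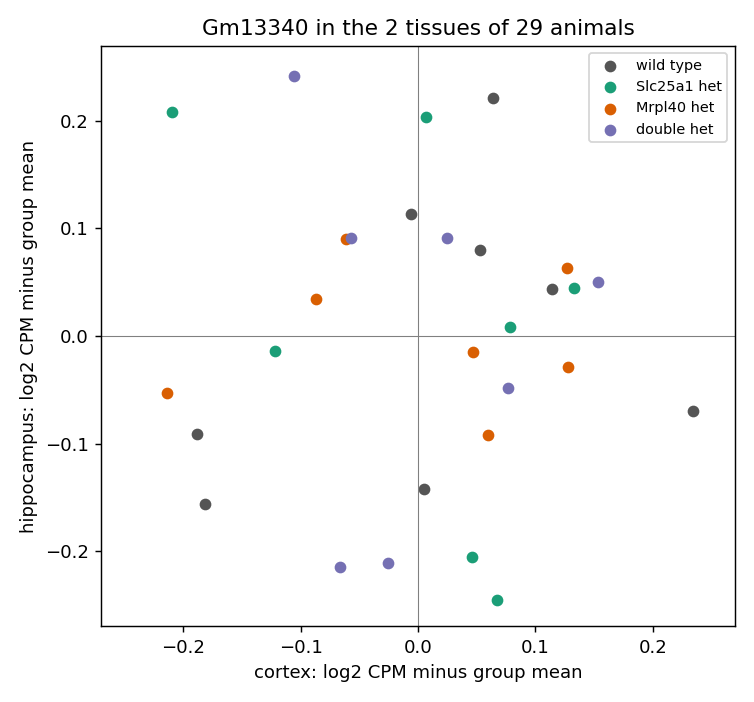
Deviation of Gm13340 from its group mean in hippocampus (vertical axis, log2 CPM) against cortex (horizontal axis, log2 CPM) in 29 animals, coloured by labelled genotype. The points lie on all sides of the centre without a trend (r = -0.029).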

How the data were processed

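The deposited files hold raw counts per gene, 1 column per library, which the authors made from the reads, and the authors' normalized values, a signal equal to the count divided by 1 factor per library (checked on the values). The submitters' processing notes name FastQC, HISAT2, featureCounts, DESeq2 and the build mm39 (GRCm39). For versions, annotation and reads with several matches, the setting was not given in the sources used here. Sequences and positions came from GENCODE vM21 of GRCm38, another build than that of the counts, joined by gene ID, with blastn 2.17.0 and a minimum of 200 aligned bases. Matches on the opposite strand and all genes of a single chromosome were left out of that search.

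The members, lists and tests were chosen with earlier results of these data known. Named genes are the 4 copies, the chromosome 1 copies, up to 3 called members of each list and the 5 genes most like the copies in each tissue. Counts were tested in R 4.3.3 with the quasi-likelihood test of edgeR 4.0.16 (TMM, filter on low counts, robust dispersion), all genotypes of a tissue in 1 fit, and hippocampus against cortex with the animal as a block. The labels tie both tissues to an animal, and deviations of the same animal correlated with a median r of 0.109 (range -0.029 to 0.414) over 5000 genes. Adjusted p are Benjamini-Hochberg values with a threshold of 0.05. CPM used TMM factors over all libraries, log2 CPM a prior count of 2, and intervals cover 95%. Permutation tests of correlations drew 100000 resamples. Alternatives were DESeq2 1.42.0, its size factors in edgeR, no filter, limma 3.58.1 on log2 of the deposited normalized values plus 1, the replicate block, no animal block, only the genotypes compared and other denominators. Fits without the 6 animals, the 4 libraries or 1 library were chosen after seeing the data. The pipeline was also run on simulated counts drawn without an animal effect, and no result given here rests on that run. Figures were drawn with Python 3.11.15 and matplotlib 3.10.9.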

Additional observations from a re-analysis of the deposited data

How the results depend on the processing

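Counts below are of copies, genes or ratios past the adjusted threshold, the cause of each change was not tested, and fits without the 6 animals, without the 4 hippocampus libraries or without 1 library were chosen after seeing the data. Between double het and wild-type hippocampus, 1 of the 4 copies (Gm13340) and 2 genes were called. No copy was called without the filter, with only the genotypes compared, without the 6 animals or without the 4 libraries (0 each). Genes called there were 8 with DESeq2, 1 without the filter, 1 with only the genotypes compared, 1 without the 6 animals and 0 without the 4 libraries. Leaving out 1 library at a time gave 0 to 1 copies and 0 to 3 genes, with edgeR adjusted p of Gm13340 from 0.0134 to 0.203.

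For Mrpl40 het against wild type, 1 copy was called with DESeq2 and 1 with only the genotypes compared, against 0. Genes called were 2 with DESeq2 size factors, 11 with DESeq2, 2 without the filter, 3 with limma, 6 with only the genotypes compared, and 0 without the 6 animals or the 4 libraries. For double het against Slc25a1 het, DESeq2 called 1 copy and 14 genes. Without the 6 animals 1 gene was called in the Slc25a1 het and 1 between double het and Mrpl40 het.

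The replicate number as a block left Gm13340 at 0.34 (edgeR adjusted p = 0.425) in the double het, with 0 copies and 0 genes called. With this replicate block, genes called were 3 in the Slc25a1 het, 0 in the Mrpl40 het, 1 in double het against Slc25a1 het and 4 in the interaction. Libraries of different genotypes share only a number: their correlations over 5000 genes ran from -0.455 to 0.527 in hippocampus, and 3 of 29 libraries correlated best with their own number. The interaction has no value with only the genotypes compared. Dropping the animal block changed no call of a copy between tissues.

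Between tissues, the called copy of the wild type was lost (0) with DESeq2, without the filter, without the 6 animals and without the 4 libraries, and that of the Slc25a1 het (0) with DESeq2, without the filter and without the 4 libraries. Of the 12 hippocampus ratios, 2 passed with Gm28661 as denominator, 8 with the library total, and 0 without the 6 animals or the 4 libraries. Of the 4 tissue ratios, 0 passed with the library total, without the 6 animals (where the smallest adjusted p reached was 0.0833) or without the 4 libraries (0.0625).

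Signs turned in results that were close to 0 and not called. With the replicate block Gm13339 in the Slc25a1 het came to -0.11 and the Gm13340 interaction to 0.027. Without the 4 libraries, Slc25a1 het values were -0.056 for Gm13339 and -0.041 for Gm13341, their ratios -0.042 and -0.026, the Gm4076 ratio 0.0048 and the Gm4076 interaction -0.026. That interaction was -0.0062 without the filter and -0.010 with limma. Without the 6 animals, Gm13341 in the Slc25a1 het was -0.062 and its ratio -0.072, Gm13340 between double and Mrpl40 het -0.014, and the wild-type tissue differences were 0.0040 for Gm13339 and 0.028 for Gm13340. The Mrpl40 het ratio was then 0.0035 for Gm13339 and -0.011 for Gm13341, and that of Gm13339 was 0.064 over Gm28661 and 0.27 over the library total.

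Depth limits Gm4076 and Gm13341 most, with 42 to 64 and 68 to 97 counts in wild-type hippocampus. The counts came from alignment to another build than the sequences shown here, and the rule for reads that match several copies was not given in the sources used here.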
